A study of Mus musculus with 10 samples.

Results

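The globin genes of the mouse were followed in haematopoietic stem cells (HSCs) of adult bone marrow with and without an inducible Sox17 transgene. Every probe set (the array's unit of measurement, a group of probes read as 1 value) was taken whose annotation names Hba-a1, Hba-a2, Hba-x, Hbb-b1, Hbb-b2, Hbb-bt, Hbb-bs, Hbb-bh1, Hbb-bh2 or Hbb-y. These 10 genes, of 21335 named on the array, lay on 8 of its 23410 named probe sets. The adult beta globins Hbb-b1, Hbb-b2, Hbb-bt and Hbb-bs share 2 probe sets, and the adult alpha globins Hba-a1 and Hba-a2 share 2 others. Each of the 4 genes grouped here as embryonic, Hba-x, Hbb-bh1, Hbb-bh2 and Hbb-y, has 1 of its own. No value here therefore belongs to a single adult globin gene. The family was chosen on the transgenic minus wild-type difference of these same arrays, on which adult beta was already known to read higher with the transgene and adult alpha not. That contrast is given for the globins as a description: no p is printed for a globin, and counts past a threshold stand only beside the share of all probe sets.

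Each group had 5 arrays (Affymetrix Mouse Gene ST 1.0), each from an aliquot of 10000 cells sorted from bone marrow of 8-week-old mice as CD150+, CD48-, Lineage-, Sca1+ and cKit+. The transgenic mice carried (tetO)7CMVSox17-IRES-NucEGFP, a Sox17 construct that also makes a nuclear green fluorescent protein, together with the allele B6.Cg-Gt(ROSA)26Sortm1 with its insert (rtTA*M2)Jae/J, an activator that depends on doxycycline and sits at the broadly active Rosa26 locus. The controls were wild-type littermates, and mice of both groups drank doxycycline at 2 mg/ml for 5 days. The activator is thus not limited to stem cells. No label ties an aliquot to 1 animal, so the spread between arrays may be partly technical. The sources used here do not give the strain of the littermates.

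Haemoglobin is a tetramer of alpha-type and beta-type globin chains, each holding a haem. The alpha-type genes lie together on mouse chromosome 11 and the beta-type genes on chromosome 7, and each cluster is switched on in red cell precursors by a distant enhancer region. Embryonic genes serve the primitive red cells of the yolk sac and are silent in adult marrow, where the adult genes supply definitive red cells. Laboratory strains differ at the adult beta locus, some carrying Hbb-bs with Hbb-bt and others Hbb-b1 with Hbb-b2. Haemoglobin itself is made in quantity only once cells are committed to the red lineage.

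The stretches just upstream of the transcription start of the main globins are shown because adult beta and adult alpha read differently on the same arrays. RefSeq sequences of GRCm38.p6 were found for 7 of the 10 genes, and 130 bases up to the start are given 5′ to 3′ on the gene's strand. Capitals mark the letters of 5 motifs, each searched on both strands. They are ATATAA, which marks many core promoters, the CCAAT box, the CACCC box, GATAAG, which binds factors of the GATA family, and CCACACCC, a form bound by the erythroid factor KLF1 that overlaps the shorter box by containing it.
Hbb-bs, chr7:103827929-103828058, minus strand: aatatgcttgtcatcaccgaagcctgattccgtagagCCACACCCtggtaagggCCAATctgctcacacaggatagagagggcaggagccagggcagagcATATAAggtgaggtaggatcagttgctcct
Hbb-bt, chr7:103813924-103814053, minus strand: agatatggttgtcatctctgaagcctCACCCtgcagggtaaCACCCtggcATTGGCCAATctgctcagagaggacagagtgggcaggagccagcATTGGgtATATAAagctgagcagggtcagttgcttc
Hba-a1, chr11:32283542-32283671, plus strand: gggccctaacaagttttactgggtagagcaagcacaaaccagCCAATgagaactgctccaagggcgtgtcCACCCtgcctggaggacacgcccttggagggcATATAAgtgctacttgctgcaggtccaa
Hba-x, chr11:32276470-32276599, plus strand: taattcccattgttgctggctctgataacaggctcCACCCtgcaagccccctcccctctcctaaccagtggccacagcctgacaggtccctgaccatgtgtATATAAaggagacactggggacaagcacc
Hbb-y, chr7:103853208-103853337, minus strand: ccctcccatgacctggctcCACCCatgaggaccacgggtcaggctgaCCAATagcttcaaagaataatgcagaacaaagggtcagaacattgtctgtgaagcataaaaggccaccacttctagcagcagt

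The whole Hba-a1 and Hba-a2 windows of 300 bases, which run past the start, were identical in all 297 bases that overlap once the 3-base offset of their starts is allowed for, so Hba-a2 is not printed. Hbb-bs and Hbb-bt matched at 99 of 128 aligned bases of the stretches considered here. ATATAA was present in the 250 upstream bases of 5 of the 7 globins, against 9.10% of all 32851 promoter windows of that length. It began at -30 in Hbb-bs, -29 in Hbb-bt, -28 in Hba-a1 and -29 in Hba-x, counting the base before the start as -1. The CCAAT box was in 5 of the 7 (33.8% of all windows), the CACCC box in 6 (52.0%), GATAAG in 4 (6.55%) and CCACACCC in 1, Hbb-bs (3.20%). Adult beta and adult alpha windows alike held each of these except the last. Every GATAAG match began between -209 and -182, upstream of the 130 bases printed. The identical Hba-a1 and Hba-a2 windows are counted separately in these numbers. The matches describe letters and not bound sites.

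The arrays of each group fell into sets, and the check of the transgene was weak. With the group means subtracted and the globins left out, the first principal component took 40.2% of the variance. It set transgenic arrays 1 to 3 with wild-type arrays 1 and 2 (array set A) apart from transgenic arrays 4 and 5 with wild-type arrays 3 to 5 (array set B). Because the group means had been subtracted, each group had to fall on both sides. The sets therefore cannot tell whether the arrays differ by group. The Sox17 probe set read 4.25 to 4.51 with the transgene and 4.02 to 4.30 in wild type. A rise of Sox17 was not detectable there (limma, adjusted p = 0.855), so every direction rests on the arrays' labels. The mean of this probe set stood at the 23.2 percentile of named probe sets, where low values can hide a change. Whether its probes read the transgene's RNA is not known here, so the value does not tell whether the transgene was induced. The sorted stem cell list (9 of 10 genes measured, Ly6a without a value here) averaged 8.50 to 8.61 log2 units with the transgene and 8.22 to 8.63 in wild type. It held 0 calls, and 5 of the 9 had an unadjusted p under 0.05 (6.59% of all probe sets did), 4 higher and 1 lower. Procr, a stem cell surface receptor, differed by 1.08 (SE 0.27, limma adjusted p = 0.247) and the sorting marker Kit by -0.47 (SE 0.12, adjusted p = 0.248).

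Adult beta-globin, chosen with this contrast known, read more than 4-fold higher on the transgenic arrays on each of its probe sets. The groups did not overlap on them, as in 0.876% of all probe sets with the transgenic arrays higher. The first probe set (10566254) read 10.99, 11.51, 11.74, 11.01 and 10.97 log2 units on transgenic arrays 1 to 5. On wild-type arrays 1 to 5 it read 9.08, 9.67, 8.94, 8.11 and 9.29. The lowest transgenic array lay 1.30 above the highest wild-type array. The group means were 11.24 ± 0.36 and 9.02 ± 0.58 (SD, n = 5 each), a log2 difference of 2.22 (SE 0.27) or 4.67-fold.

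The second adult beta probe set (10566258) showed the same order of arrays at its extremes. It read 10.81, 11.27, 11.63, 10.84 and 10.75 on transgenic arrays 1 to 5. On wild-type arrays 1 to 5 it read 8.88, 9.63, 8.95, 8.23 and 9.40. Transgenic array 3 was highest and wild-type array 4 lowest on each of these probe sets. The means were 11.06 ± 0.38 and 9.02 ± 0.54 (SD, n = 5 each), a log2 difference of 2.04 (SE 0.26) or 4.12-fold.

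The pair of adult beta probe sets differed from each other by at most 0.24 on any array, with a median of 0.15. They name the same 4 genes and may share probes or targets, so they are not independent readings. Which adult beta haplotype the mice of each group carry is not known here, and its part in the difference was not tested. In the whole-table ranking of differences from the highest down they stood 8th and 12th of 23410. In the limma fit over all named probe sets, 2 of the 8 globin probe sets passed an adjusted p of 0.05 (Benjamini-Hochberg), as did 0.141% of all. By direction, 0.120% of all passed with the transgenic arrays higher and 0.0214% with them lower. The groups stood wholly apart, transgenic higher, in 0.876% of all. The globin groups did not overlap in the same 2, as in 1.47% of all probe sets in either direction. Since the family was chosen with this contrast known, nothing is read from these counts.

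**Figure D1:**
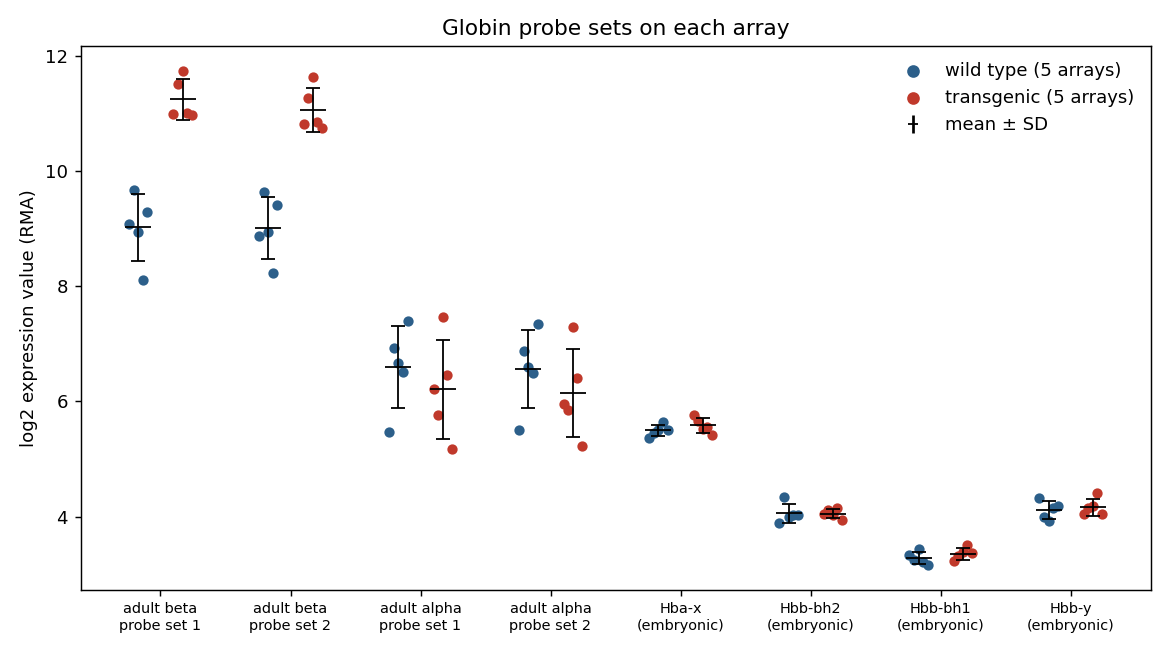
Log2 expression value of each of the 8 globin probe sets on every array (points; blue, 5 wild-type arrays; red, 5 transgenic arrays), with the mean and SD of each group in black. The groups are apart on the adult beta probe sets, where the lowest transgenic array reads 10.75, and overlap on the adult alpha and embryonic ones.

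Adult alpha-globin showed no such separation and varied widely within each group. The first probe set (10375051) read 6.21, 5.76, 7.47, 6.45 and 5.17 on transgenic arrays 1 to 5. On wild-type arrays 1 to 5 it read 5.47, 6.93, 6.68, 6.51 and 7.40. The highest and the lowest of the 10 arrays were both transgenic, arrays 3 and 5. The means were 6.21 ± 0.86 and 6.60 ± 0.71 (SD, n = 5 each), and the log2 difference of -0.38 (SE 0.43) was smaller than either SD.

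The second adult alpha probe set (10375058) read 5.22 to 7.30 on the transgenic arrays with a median of 5.96. On the wild-type arrays it read 5.50 to 7.34 with a median of 6.60. Its log2 difference was -0.41 (SE 0.39), and it differed from the first probe set by at most 0.254 on any array. Among the wild-type arrays alone, the SD of these probe sets stood at the 98.5 and 98.2 percentiles of all probe sets, and that of the adult beta ones at the 96.8 and 95.9 percentiles. The adult globins were thus among the more variable probe sets before any comparison of groups. In sorted cells, a change in the number of cells carrying globin RNA and a change in RNA per cell cannot be told apart.

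The embryonic globins differed by less than 0.1 between the groups, and Hbb-y, Hbb-bh1 and Hbb-bh2 read low on all arrays. Hba-x, the zeta-like chain of the alpha cluster, read 5.43 to 5.76 with the transgene and 5.37 to 5.64 in wild type. Hbb-y, the epsilon-like chain, read 4.04 to 4.41 and 3.93 to 4.33. Hbb-bh1, a chain of early yolk sac red cells, read 3.23 to 3.51 and 3.16 to 3.44, and Hbb-bh2 read 3.93 to 4.14 and 3.89 to 4.34. The groups overlapped on each of these probe sets. The log2 differences were 0.09 (SE 0.08) for Hba-x, 0.05 (SE 0.10) for Hbb-y, 0.08 (SE 0.08) for Hbb-bh1 and -0.00 (SE 0.09) for Hbb-bh2.

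Levels of different probe sets are not compared, since probes differ in brightness. As a place on the array, the mean of the adult beta probe sets stood at the 96.2 and 96.0 percentiles of named probe sets and that of the adult alpha ones at the 60.5 and 59.6 percentiles. Hba-x stood at the 45.4 percentile, Hbb-y at 20.8, Hbb-bh2 at 19.5 and Hbb-bh1 at 9.02. For Hbb-y, Hbb-bh2 and Hbb-bh1, values so near the array's floor can hide a change, since the processing compresses differences there.

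The group difference was positive for adult beta and of the other sign, within the spread, for adult alpha. Averaged over its probe sets, adult beta had a mean of 11.15 ± 0.37 with the transgene and 9.02 ± 0.56 in wild type (SD, n = 5 each), a log2 difference of 2.13 (4.39-fold). Adult alpha read 6.18 ± 0.81 and 6.58 ± 0.70, a difference of -0.40. The adult beta value minus the adult alpha value was 4.81, 5.58, 4.30, 4.50 and 5.67 on transgenic arrays 1 to 5. On wild-type arrays 1 to 5 it was 3.50, 2.75, 2.30, 1.67 and 1.98. The groups did not overlap in this quantity, whose change between the groups was 2.53 (SE 0.42). The family was chosen with adult beta known to read higher and adult alpha not, so nothing is read from this separation. The absolute size of the quantity carries the unknown brightness of the probes, so only its change is described.

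Within a group, some arrays high in adult beta were also high in adult alpha and others were not. Transgenic array 3 lay 0.54 above its group mean in adult beta and 1.20 above it in adult alpha. Wild-type array 5 lay 0.33 and 0.79 above, and transgenic array 5 lay at -0.29 and -0.98. Wild-type array 4, the lowest in adult beta at -0.85 from its group mean, lay at -0.08 in adult alpha. Wild-type array 1 was the reverse case, at -0.04 in adult beta and -1.09 in adult alpha.

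**Figure D2:**
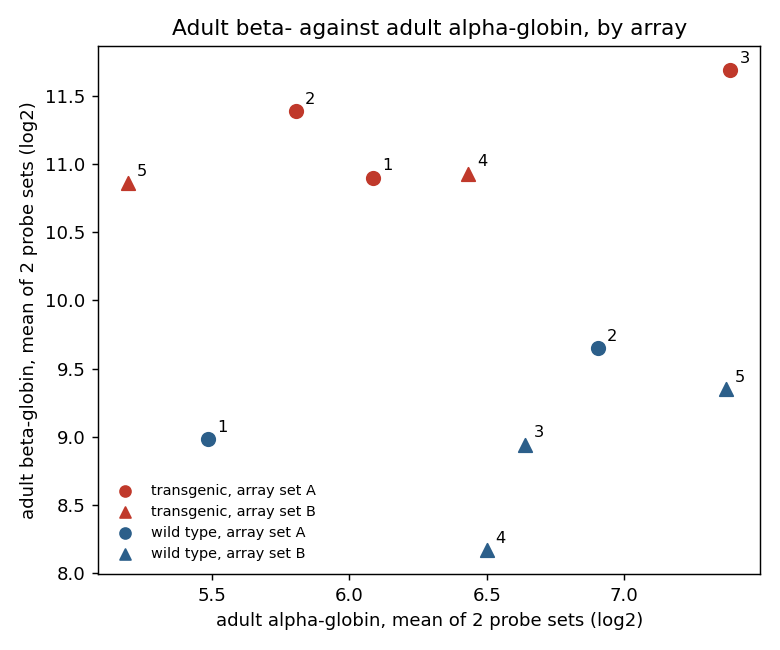
Mean log2 value of the adult beta-globin probe sets (vertical) against that of the adult alpha-globin probe sets (horizontal) on each of the 10 arrays; numbers give the replicate, colours the group and shapes the array set. Every transgenic array lies at 10.86 or above in adult beta and every wild-type array at 9.65 or below, while adult alpha spans 5.20 to 7.39 in the transgenic and 5.49 to 7.37 in the wild-type group.

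By array set, with 2 or 3 arrays per group, the adult beta difference changed little and the adult alpha difference changed sign. In set A adult beta averaged 11.32 over 3 transgenic arrays and 9.32 over 2 of wild type, a difference of 2.01. In set B it averaged 10.89 over 2 transgenic arrays and 8.82 over 3 of wild type, a difference of 2.07. Adult alpha differed by 0.23 in set A and by -1.02 in set B, and the embryonic mean by 0.04 and 0.07. The SD of adult alpha was 0.81 over the transgenic and 0.70 over the wild-type arrays. Without transgenic array 5 the adult alpha difference was -0.15, and without transgenic array 3 it was -0.70. Leaving out each array in turn gave 1.92 to 2.29 for adult beta. The family was chosen on this contrast of the same arrays, so nothing is read from how these splits compare.

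**Figure D3:**
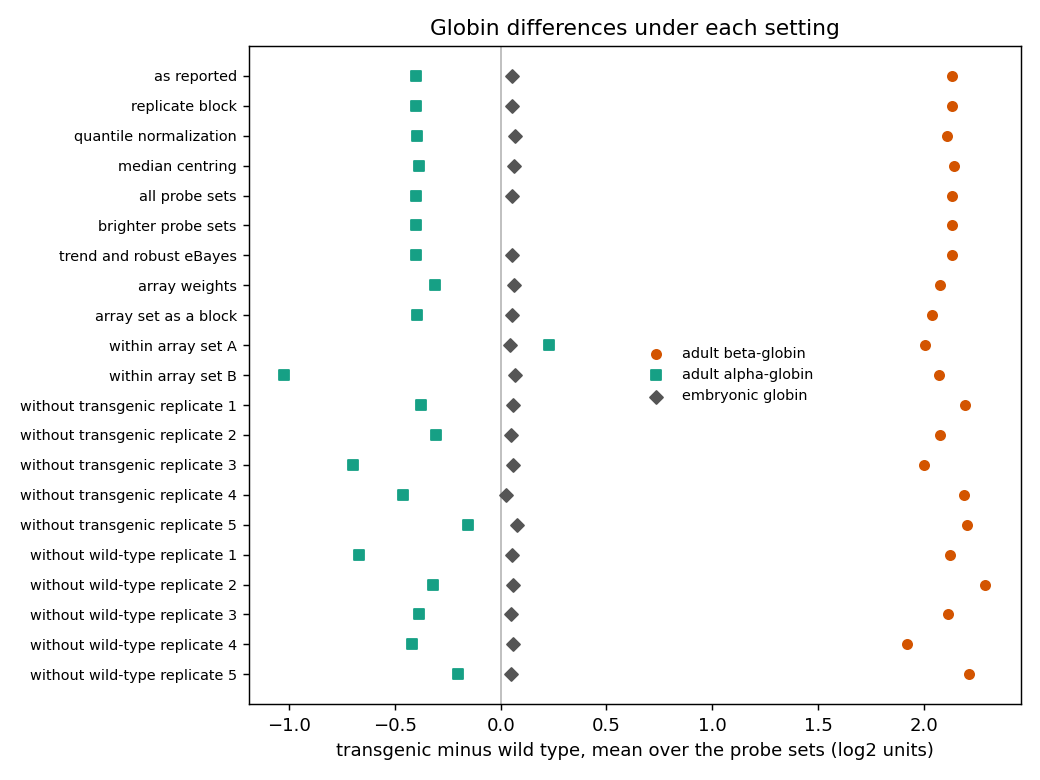
Transgenic minus wild-type difference in log2 units (horizontal), averaged over the adult beta (circles), adult alpha (squares) and embryonic (diamonds) probe sets, for the fit as reported and each other setting (vertical). Adult beta stays between 1.92 and 2.29 throughout, while adult alpha runs from -1.02 within array set B to 0.23 within array set A.

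The other globin genes held no call. Of 5 measured, Hbq1a, Hbq1b, Mb, Ngb and Cygb, 0 passed the threshold of an adjusted p of 0.05 (limma) and 0 had an unadjusted p under 0.05, against 6.59% of all probe sets. Hbq1b and Hbq1a, theta-type globins of the alpha cluster, differed by -0.02 (SE 0.13) and 0.07 (SE 0.14). Myoglobin (Mb), the oxygen-binding protein of muscle, differed by -0.09 (SE 0.08), neuroglobin (Ngb) by 0.19 (SE 0.10) and cytoglobin (Cygb) by -0.07 (SE 0.10).

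Genes that make haem held no call. Of 14 measured genes of haem synthesis and its transport steps, 0 passed the threshold (limma). Of these genes 1 had an unadjusted p under 0.05, against 6.59% of all probe sets. The list's median difference was -0.08, against -0.01 over all probe sets, and 12 of the 14 were negative, as were 53.7% of all. Alad, the second enzyme of the pathway, read 7.94 ± 0.28 with the transgene and 8.21 ± 0.07 in wild type (SD, n = 5 each), a difference of -0.28 (adjusted p = 0.754). The mitochondrial glycine carrier Slc25a38 differed by -0.35, the porphyrin transporter Tmem14c by -0.30 and the iron importer mitoferrin, Slc25a37, by -0.23. Alas2, the erythroid form of the rate-limiting enzyme, was added for its role after its values were seen; it read 5.31 in each group.

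Red cell membrane and late erythroid genes likewise held no call among 26 measured, and 7 had an unadjusted p under 0.05, all of them lower on the transgenic arrays, against 6.59% of all probe sets in either direction and 2.90% lower. The list's median difference was -0.09, with 19 of 26 negative, and the mean over its genes was 5.98 to 6.16 with the transgene and 6.12 to 6.28 in wild type. Carbonic anhydrase 2 (Car2) differed by -0.38 (adjusted p = 0.356), the erythropoietin receptor Epor by -0.46 (adjusted p = 0.376), the transferrin receptor Tfrc by -0.57 (adjusted p = 0.415) and the erythroid nuclear protein Hemgn by -0.41 (adjusted p = 0.429). Band 3 (Slc4a1), the main anion exchanger of the red cell membrane, was added for its role after its values were seen; it read 5.65 and 5.79 in the group means. Averaged over the arrays, the list stood at 6.04 ± 0.07 with the transgene, where adult beta read higher, and at 6.16 ± 0.07 in wild type (SD, n = 5 each).

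Among regulators of the globin genes, 1 of 27 measured passed the threshold, against 0.141% of all probe sets. The called gene was lower with the transgene, as were 0.0214% of all. Gfi1b, a transcriptional repressor of erythroid and megakaryocytic cells, averaged 7.20 ± 0.32 with the transgene and 8.25 ± 0.19 in wild type (SD, 5 arrays each). Its log2 change was -1.05 (adjusted p = 0.0266 in limma). Leaving out transgenic array 3 or 4 or any 1 of wild-type arrays 1 to 5 raised its adjusted p to between 0.0543 and 0.0854, quantile normalization to 0.0519 and the test of all probe sets to 0.0749. The list's median difference was -0.06, with 16 of 27 negative, and 8 members had an unadjusted p under 0.05, 6 of them lower, against the same 6.59% and 2.90% of all. Klf1, the erythroid activator of the adult beta genes through the CACCC box shown above, read 4.81 ± 0.18 against 5.22 ± 0.31 (difference -0.41, adjusted p = 0.557). Klf3, a repressor that binds similar boxes, differed by 0.50 (adjusted p = 0.211), and Tal1, a factor of the erythroid enhancer complex, by -0.22 (adjusted p = 0.532).

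A few regulators were added for their roles after their values were seen. Gata1, the main erythroid GATA factor, differed by -0.38 (SE 0.18). Bcl11a, Zbtb7a and Sox6, which silence embryonic and fetal-type globins, differed by 0.28 (SE 0.19), 0.07 (SE 0.17) and -0.13 (SE 0.11). Their adjusted p in limma ran from 0.782 to 0.988.

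Proteins that work with globin chains or handle haem gave 0 calls among 12 measured (limma). Of these, 2 had an unadjusted p under 0.05, against 6.59% of all probe sets. The biliverdin reductase Blvrb differed by -0.36 (adjusted p = 0.558) and the haem oxygenase Hmox1 by -0.49 (adjusted p = 0.743). Bpgm, which makes the red cell's 2,3-bisphosphoglycerate, differed by 0.18, and Eif2ak1, the kinase that slows globin translation when haem is short, by 0.30. The alpha-globin chaperone Ahsp was not analysed here. Over these 4 erythroid lists 1 of 77 distinct genes passed, 0 higher and 1 lower, against 0.141% of all probe sets.

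**Figure D4:**
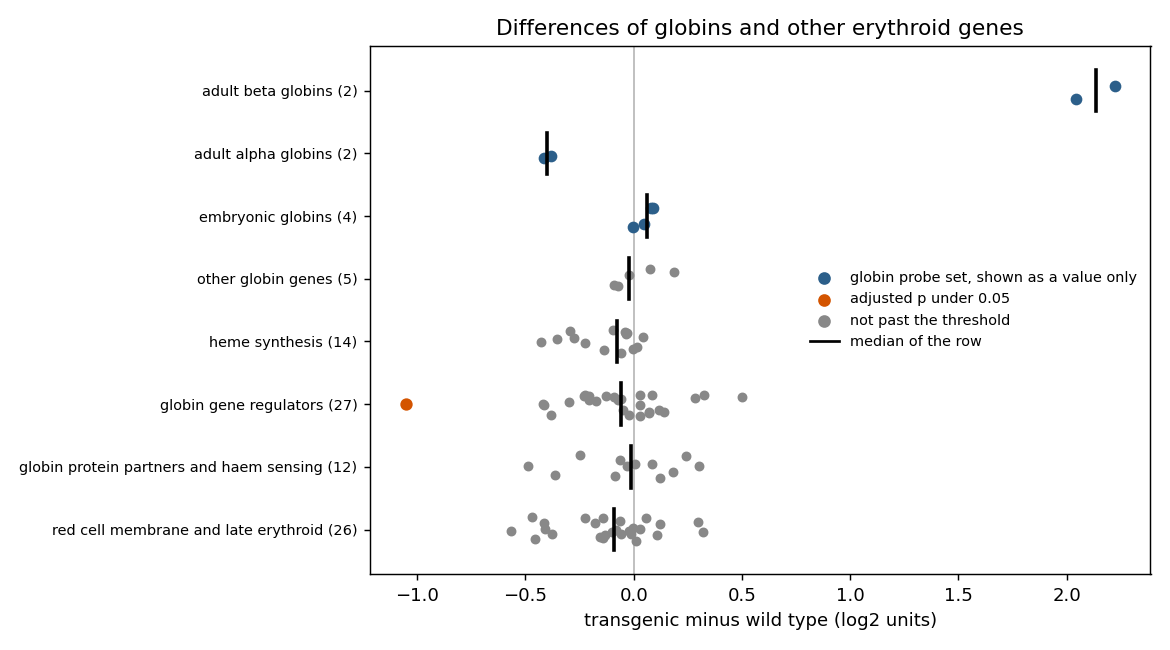
Transgenic minus wild-type difference in log2 units (horizontal) of each globin probe set (blue, shown as values only) and of each gene of the other lists (grey; orange where past an adjusted p of 0.05), with the number of points in brackets and the median of each row as a black bar. Adult beta-globin lies at 2.04 and 2.22, while the other erythroid genes lie between -1.05 (Gfi1b) and 0.50 (Klf3).

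Other blood cell lists were read for RNA of other cells. Of all probe sets, 0.141% passed the threshold in limma, and 6.59% had an unadjusted p under 0.05 (2.90% lower). The platelet list (10 measured) averaged 6.06 to 6.35 with the transgene and 6.43 to 6.94 in wild type, with 1 call, Pf4 (-2.53, limma adjusted p = 0.0112). Of its 10 genes 8 had an unadjusted p under 0.05, 6 of them lower and 2 higher, among them Vwf, von Willebrand factor, at 1.28 (adjusted p = 0.110), and the platelet receptor gene Gp5 at -1.08 (adjusted p = 0.132). The granulocyte and monocyte list (14 measured) averaged 5.24 to 6.24 and 5.03 to 5.33 with 0 calls and 1 gene at an unadjusted p under 0.05, Lyz2 (0.36). Its median difference was 0.34, against -0.01 over all probe sets, with 12 genes positive and 2 negative. The list mean was highest on transgenic arrays 4 and 5, at 5.65 and 6.24. S100a8 differed by 1.24 (SE 0.58, limma adjusted p = 0.771). The B cell list (8 measured) averaged 4.69 to 4.95 and 4.83 to 5.08, and the T and NK cell list (8 measured) 4.39 to 4.62 and 4.67 to 4.92, each with 0 calls and 1 gene at an unadjusted p under 0.05. Those genes were Vpreb1 (-0.83) and Nkg7 (-1.17). The part of any such cells in the adult beta difference was not tested.

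Genes beside the globin clusters held no call either. Of all probe sets, 0.141% passed the threshold in limma and 6.59% had an unadjusted p under 0.05. The 15 nearest measured genes on each side of the beta cluster, in the order of the RefSeq table of GRCm38.p6, were all olfactory receptors; 0 of the 30 passed the threshold (limma), 2 had an unadjusted p under 0.05 and their median difference was 0.04. Olfr632, 1 of these receptors, differed by 0.80 (SE 0.23, adjusted p = 0.375), Olfr631 by 0.47 (SE 0.18) and Olfr65 by 0.44 (SE 0.21). Over all 30 receptors the median level stood at the 11.3 percentile. The 10 nearest genes per side that are not olfactory receptors, a choice made after seeing the names, differed by -0.33 to 0.60 with a median of 0.00. The highest was Trim12c (0.60, SE 0.29), a member of the TRIM gene cluster nearby.

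Around the alpha cluster 0 of 30 neighbours passed (limma), 2 had an unadjusted p under 0.05 and the median difference was 0.01. These neighbours include the theta-type globin Hbq1a, also counted above among the other globin genes. Stc2, a secreted glycoprotein, differed by 1.34 (SE 0.46, adjusted p = 0.510), Chac2, an enzyme that degrades glutathione, by 0.44 (SE 0.16) and Erlec1, an endoplasmic reticulum lectin, by 0.33 (SE 0.18).

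The genes whose array-to-array pattern was most like each adult cluster were ranked after the group means were taken out, over 10 arrays and 10879 candidate probe sets, those brighter than the median that name 1 gene. For adult beta they were Skp2 (r = 0.95), Rpe (0.92), Zfp1 (0.90), Sp4 (0.90) and Rab6a (0.89). For adult alpha they were Gpat4 (r = 0.90), Mfhas1 (0.88), Ssbp2 (0.84), Fam171a1 (0.83) and Ccne1 (0.83). The lists share no gene, and of their genes Zfp1 alone passed the threshold, as did 0.141% of all probe sets. Zfp1 read 0.72 higher on the transgenic arrays (limma adjusted p = 0.0184). As the highest of many values over arrays that share their sets, the r values are descriptions.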

How the data were processed

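Log2 expression values of 35556 probe sets on 10 arrays were deposited by the authors, made by robust multi-array average (RMA) with affy and limma per the submitters' processing notes; the sources used here give no versions or build. RMA equalizes arrays and compresses low values. The table's 23410 probe sets with a gene symbol (21789 with 1 symbol, 1621 with several; 12146 unnamed here) were fitted with limma 3.58.1 in R 4.3.3 (two-sided, transgenic minus wild type, Benjamini-Hochberg over all, threshold 0.05), and the fit was tested on simulated data. Groups came from sample titles. The number of arrays limits precision. Lists used the brightest one-gene probe set of each gene. Named were all globin probe sets, up to 4 genes per list and 3 neighbours per locus by smallest p, and 5 genes most like each adult cluster among probe sets brighter than the median; exceptions are marked. Alternatives were a replicate block, quantile normalization, median centring, other probe set filters, eBayes settings, array weights, array sets and leaving out arrays. Members and lists were chosen with earlier results of these data known. All 10 globin symbols were found in the RefSeq table.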

Additional observations from a re-analysis of the deposited data

How the results depend on the processing

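The count of 2 globin probe sets past the threshold was the same under all settings over 9 or 10 arrays, and it was 0 within array set A and 0 within array set B, where 5 arrays remain; as the family was chosen on this contrast, nothing is read from it. The adult beta, adult alpha and embryonic differences moved by less than their SD in all settings run. Leaving out arrays gave 1.92 to 2.29, -0.70 to -0.15 and 0.03 to 0.08. For the same reason, nothing is read from these differences. Of all probe sets, 33 passed in the reported fit, 15 when all 35556 were tested, 91 with the array set as a block, 4 within set A and 6 within set B. Leaving out arrays gave 15 to 71: 71 without transgenic array 2, 19 and 15 without transgenic arrays 3 and 4, and 20, 18, 16, 17 and 17 without wild-type arrays 1 to 5. The 1 call of the erythroid lists (Gfi1b) was lost, leaving 0, with quantile normalization, with all probe sets, within set A and within set B; leaving out arrays gave 0 to 1. The cause was not tested. With the replicate number as a block the globin count was 2 and 33 probe sets passed in all. The numbers are not known to pair the arrays: correlations of deviations between same-numbered arrays ran from -0.14 to 0.35, and 0 of 5 transgenic arrays correlated best with their own number. The embryonic mean gave no value among the brighter probe sets.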
